A study of Rattus norvegicus with 6 samples.

Results

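Collagen prolyl hydroxylases, lysyl hydroxylases and lysyl oxidases were examined in rat nucleus pulposus cells (NPCs), the cells of the gel-like core of the intervertebral disc. The 10 genes were taken by symbol from a table of 20264 gene rows. They comprise the prolyl hydroxylase subunits P4ha1 and P4ha2, the lysyl hydroxylases Plod1, Plod2 and Plod3, and the lysyl oxidases Lox, Loxl1, Loxl2, Loxl3 and Loxl4. All 10 were found, and all 10 had enough counts to be tested. The cells were primary cultures from the caudal discs of wild type male Sprague-Dawley rats, and the animals' age was not given in the sources used here. In the TBHP group, 3 libraries came from cells given tert-butyl hydroperoxide, an oxidant that was used to induce senescence. In the TBHP+FGF21 group, 3 libraries came from cells given the same oxidant together with recombinant FGF21, a secreted metabolic hormone. Both groups thus carried the oxidant, and cells without TBHP were not analysed here. The treatment labels name FGF21 for replicate 1 of this group but FGF22 for replicate 2 and FGF23 for replicate 3, whereas the description of the series gives FGF21 for the whole group. Groups follow that description and the library titles. The description of the series calls the libraries biological replicates without tying them to animals, so that the p-values measure the spread between these libraries. They are named T1, T2 and T3 in the TBHP group and F1, F2 and F3 in the TBHP+FGF21 group, after their replicate numbers.

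These enzymes act on collagen in sequence. Prolyl 4-hydroxylase modifies proline in the endoplasmic reticulum, which lets the triple helix stay folded at body temperature, and its catalytic α subunits are encoded by P4ha1 and P4ha2. Lysyl hydroxylases modify lysine in the same compartment. Plod1 acts on the helix and Plod2 on the telopeptides at the ends of the chain, and Plod3 also adds glucose to galactosylated hydroxylysine. Both kinds of hydroxylase need iron, 2-oxoglutarate and ascorbate. Outside the cell, the copper enzymes Lox and Loxl1 to Loxl4 oxidise lysine and hydroxylysine, and the products form the cross-links of collagen and elastin. In the disc, the collagen network holds the swelling proteoglycan of the nucleus in place.

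Between 18277732 and 22426190 counts fell on genes in each library. The lowest count of any of the 10 genes was 618, for Loxl4, where counting error alone corresponds to a relative error of 4.02%. F2 stood apart from its own group. Across the genes tested, its Spearman's rho was 0.996 with each TBHP library, 0.992 with F1 and 0.989 with F3. It was not alone in this, as T3 was nearer to F1 (0.9942) than to T1 (0.9928) or T2 (0.9933). Of the markers of nucleus pulposus, Acan, which encodes the proteoglycan aggrecan, and the transcription factors Pax1 and Foxf1 were present. The notochord factors Tbxt and Noto had a count of 0 in every library, and the highest level of Col2a1, the cartilage collagen, was 0.782 CPM (counts scaled to the library total, with TMM normalisation for composition). Krt18, Car12, Cd24 and Krt8 reached at most 0.168, 0.622, 2.13 and 4.27 CPM. Sox9 lay between 4.90 and 11.3 CPM. The annulus and fibroblast markers Thy1, S100a4, Dcn, Pdgfra and Scx were present too. They lay at 1021 to 1188, 609 to 1011, 147 to 232, 88.6 to 147 and 84.7 to 154 CPM. Fap was at most 9.61 CPM, and Tnmd had a count of 0 in every library. The defining blood cell markers Ptprc and Adgre1 and the endothelial markers Cdh5 and Kdr had a count of 0 in every library. The same table lists Fth1, a ferritin gene that every cell uses, at 0 in every library, so that a row at 0 does not show that a gene was silent. In bulk RNA, fewer cells of one type and less RNA per cell cannot be told apart.

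With all 6 libraries, none of the 10 genes had an adjusted p under 0.05 in edgeR's quasi-likelihood fit (adjusted after Benjamini and Hochberg over 11426 genes), against 0.00875% of all genes tested. Before adjustment, 3 of the 10 had a p under 0.05, against 8.92% of all genes. Of these, Loxl1 and Plod1 were higher in the TBHP+FGF21 group (4.63% of all genes were higher) and Plod2 was lower (4.29% were lower). The count was 4 by DESeq2, against 6.20% of all genes, and 5 by limma-voom, against 8.72%. Neither called any of the 10 after adjustment, and over all genes DESeq2 called 4 and limma-voom 0. The count moved with single libraries, and so did that over all genes. It was 5 without F2 (23.6% of all genes), 3 without T3 (15.3%), 2 without F1 (4.15%), 1 without T1 (4.41%), 0 without T2 (2.92%) and 0 without F3 (2.96%). None of the 10 genes had an absolute log2 fold change above 1. The median log2 fold change of the 10 genes was -0.03, beside -0.01 for all genes tested, and the median absolute value was 0.17 beside 0.13. The genes thus lay on both sides of 0, as the plot of the levels in each library shows.

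**Figure D1:**
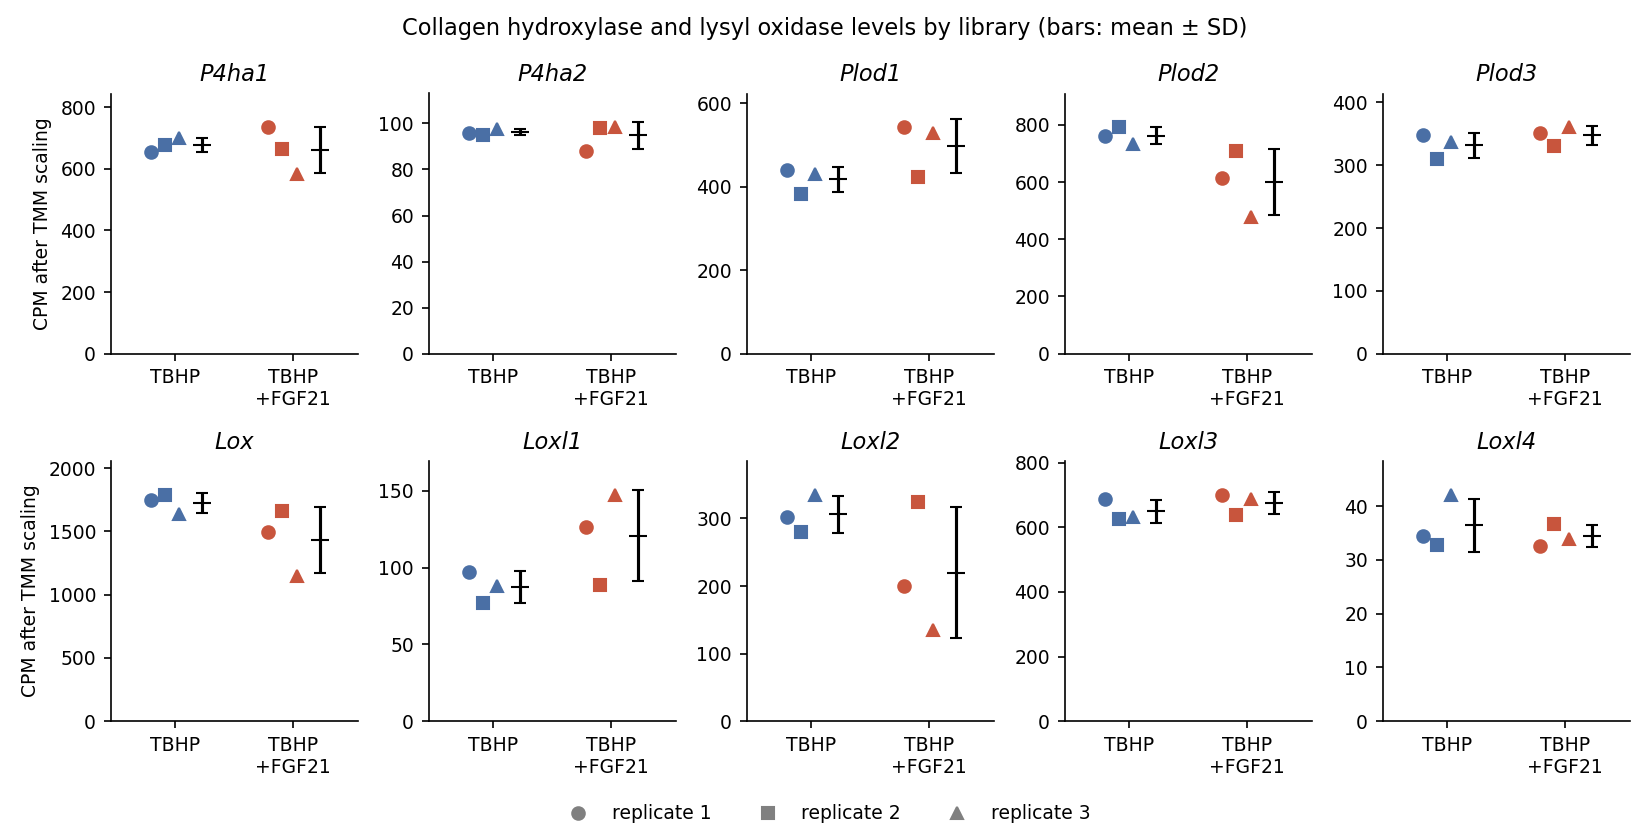
Levels of the 10 genes in each library, in CPM after TMM scaling, with the TBHP group in blue, the TBHP+FGF21 group in red, symbols for the replicate number and bars for the mean ± SD. Loxl1 and Plod1 lie highest in F1 and F3 and Plod2, Lox and Loxl2 lie lowest there, while F2 lies near the TBHP libraries.

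Promoter sequences of 4 of these genes are given. P4ha1 and Plod2 are known targets of the hypoxia-inducible factors, and Plod1 and Loxl1 were those higher at an unadjusted p under 0.05 by edgeR. Because this choice used the fold changes, a difference between these windows is a description only. RefSeq's table for GRCr8 held a window of 300 bases, from 250 before to 50 after the start, for 8 of the 10 genes. Capitals mark the core of the hypoxia response element, searched as ACGTG and GCGTG on both strands, which overlaps the CACGTG of the E-box. The windows are chr20:27844796-27845095 (plus strand) for P4ha1, chr8:101964068-101964367 (plus strand) for Plod2, chr5:163650688-163650987 (minus strand) for Plod1 and chr8:67612175-67612474 (minus strand) for Loxl1, and each is written 5′ to 3′ along the gene.
P4ha1: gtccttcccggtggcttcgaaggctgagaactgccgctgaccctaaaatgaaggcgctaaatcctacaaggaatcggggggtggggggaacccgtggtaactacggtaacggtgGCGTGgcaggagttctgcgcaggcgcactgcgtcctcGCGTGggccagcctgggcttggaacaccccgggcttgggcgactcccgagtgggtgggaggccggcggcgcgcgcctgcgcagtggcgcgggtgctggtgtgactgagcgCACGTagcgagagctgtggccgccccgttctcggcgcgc
Plod2: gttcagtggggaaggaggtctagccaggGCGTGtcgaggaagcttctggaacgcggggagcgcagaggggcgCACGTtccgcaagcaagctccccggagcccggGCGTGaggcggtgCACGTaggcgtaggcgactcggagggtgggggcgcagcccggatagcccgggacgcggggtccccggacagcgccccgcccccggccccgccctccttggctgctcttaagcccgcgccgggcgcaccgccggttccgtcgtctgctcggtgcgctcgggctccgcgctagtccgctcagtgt
Plod1: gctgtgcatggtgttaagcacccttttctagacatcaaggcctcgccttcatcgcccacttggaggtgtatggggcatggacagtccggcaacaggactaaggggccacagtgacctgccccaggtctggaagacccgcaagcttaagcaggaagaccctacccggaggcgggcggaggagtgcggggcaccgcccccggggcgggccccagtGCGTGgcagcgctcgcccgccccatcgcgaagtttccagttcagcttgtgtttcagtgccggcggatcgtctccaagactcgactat
Loxl1: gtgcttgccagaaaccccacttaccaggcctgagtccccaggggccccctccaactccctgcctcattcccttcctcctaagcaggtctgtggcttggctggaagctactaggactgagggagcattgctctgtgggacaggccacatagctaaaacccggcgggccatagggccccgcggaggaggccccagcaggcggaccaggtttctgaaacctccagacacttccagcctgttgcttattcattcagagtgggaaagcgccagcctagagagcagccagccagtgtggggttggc

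This core was found 4 times in the window of Plod2, 3 times in that of P4ha1, 1 time in that of Plod1 and 0 times in that of Loxl1. The most, 5, were in the window of P4ha2. In all, 6 of the 8 windows held it, beside 41.6% of the 33469 promoters in the table. The 8 windows were also rich in G and C, from 61.0% to 73.7%, beside a median of 51.7% over all promoters. None of the 8 windows held the AP-1 site TGANTCA, the cAMP response element TGACGTCA or the TATA box TATAAA, which were found in 7.33%, 1.83% and 14.2% of all promoters. These matches describe letters in a window, and binding was not measured.

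The prolyl hydroxylase subunits differed little between the groups. P4ha1 was at 655, 676 and 699 CPM in T1, T2 and T3 and at 734, 664 and 584 CPM in the TBHP+FGF21 group. Its highest and lowest values both came from the TBHP+FGF21 group, with the TBHP libraries in between. The log2 fold change was -0.03 (95% interval -0.26 to 0.19, adjusted p = 0.914 by edgeR). P4ha2 was at 95.9, 95.2 and 97.7 CPM against 88.2, 98.1 and 98.3 CPM. F1 was below all TBHP libraries, and F2 and F3 were slightly above them. Its log2 fold change was -0.02 (95% interval -0.21 to 0.17, adjusted p = 0.941 by edgeR), a sign that turned with the scaling or the strand used. The ratio of the P4ha1 to the P4ha2 count lay between 6.83 and 7.15 in the TBHP group and was 8.32, 6.77 and 5.95 in the TBHP+FGF21 group. The mean log2 ratio differed by -0.02, with SDs of 0.04 and 0.24 (two-sided exact permutation test, p = 0.9, adjusted p = 0.9 over 3 ratios, n = 3 per group). For 3 libraries against 3, the smallest p this test allows is 0.1.

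Among the lysyl hydroxylases, Plod1 and Plod2 lay on opposite sides. Plod2, the telopeptide enzyme, was at 761, 791 and 732 CPM in the TBHP group and at 616, 708 and 477 CPM in the TBHP+FGF21 group. Every TBHP+FGF21 library was below every TBHP library, by the least in F2, and Plod2 was the 1 gene of the 10 whose groups did not overlap, against 9.90% of all genes tested, 5.00% lower and 4.90% higher. The means were 761 ± 29.6 and 600.2 ± 116 CPM (SD, n = 3), a fold of 0.788 and a log2 fold change of -0.34 (standard error 0.13, unadjusted p = 0.0217 and adjusted p = 0.553 by edgeR). Without F2 the log2 fold change was -0.47 (adjusted p = 0.0217 by edgeR), and without F3 it was -0.19.

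Plod1, the helix enzyme, was at 439, 383 and 431 CPM in the TBHP group and at 542, 424 and 528 CPM in the TBHP+FGF21 group. F1 and F3 were above all TBHP libraries, and F2 was within their range. The means of 417 ± 30.3 and 498 ± 64.3 CPM (SD, n = 3) gave a fold of 1.19 and a log2 fold change of 0.25 (standard error 0.11, unadjusted p = 0.0431 and adjusted p = 0.553 by edgeR). It was 0.37 without F2 (adjusted p = 0.0382 by edgeR). Plod3 showed no such difference, at 348, 309.7 and 337 CPM against 351, 331 and 360.1 CPM, with a log2 fold change of 0.07 (95% interval -0.13 to 0.27, adjusted p = 0.804 by edgeR).

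A ratio of counts within a library does not depend on how libraries are scaled. The ratio of Plod2 to Plod1 was 1.73, 2.07 and 1.70 in the TBHP group and 1.14, 1.67 and 0.904 in the TBHP+FGF21 group. The TBHP+FGF21 libraries were all lower, F2 by little. The mean log2 ratio was 0.87 ± 0.16 in the TBHP group and 0.26 ± 0.45 in the TBHP+FGF21 group (SD, n = 3), a difference of -0.61 (two-sided exact permutation test, p = 0.1, adjusted p = 0.3 over 3 ratios). That difference was -0.85 without F2 and -0.41 without F3.

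The lysyl oxidases also divided. Lox, the founding member of the family, was at 1748, 1789 and 1634 CPM in the TBHP group and at 1492, 1659.9 and 1149 CPM in the TBHP+FGF21 group. F1 and F3 were below all TBHP libraries, F2 was not, and the log2 fold change of -0.27 (standard error 0.13) missed the threshold (unadjusted p = 0.0598 and adjusted p = 0.553 by edgeR). It was -0.12 without F3 and -0.38 without F2, where the adjusted p was 0.0644 by edgeR. Loxl2, which is known to cross-link basement membrane collagen IV, varied most of the 10. Its levels were 303, 281 and 335 CPM in the TBHP group and 200.5, 324 and 135 CPM in the TBHP+FGF21 group. F2 lay among the TBHP libraries, and F1 and F3 were far below them. The coefficient of variation was 8.90% in the TBHP group and 43.8% in the TBHP+FGF21 group. For all 6 libraries the log2 fold change was -0.48 (standard error 0.23, unadjusted p = 0.0622 and adjusted p = 0.553 by edgeR). Without F2 it was -0.86 (standard error 0.14, adjusted p = 0.00115 by edgeR), and without F3 it was -0.21.

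Loxl1, which is known for its part in elastic fibre assembly, lay on the other side. It was at 97.2, 76.7 and 88.3 CPM in the TBHP group and at 127, 88.5 and 147 CPM in the TBHP+FGF21 group. F1 and F3 were above every TBHP library, and F2 was within the TBHP range. The means of 87.4 ± 10.3 and 121 ± 29.9 CPM (SD, n = 3) gave a fold of 1.38 and a log2 fold change of 0.47 (standard error 0.16, unadjusted p = 0.0126 and adjusted p = 0.553 by edgeR). Its value was 0.66 without F2 (adjusted p = 0.00184 by edgeR) and 0.31 without F3.

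Loxl3 and Loxl4, paralogs with scavenger receptor domains like Loxl2, did not show a difference beyond the spread between libraries. Loxl3 ranged from 627 to 689 CPM in the TBHP group and from 637 to 700.4 CPM in the TBHP+FGF21 group, with a log2 fold change of 0.06 (95% interval -0.15 to 0.26, adjusted p = 0.839 by edgeR). Loxl4, the lowest in counts, ranged from 32.7 to 42.1 CPM and from 32.6 to 36.8 CPM, at -0.08 (95% interval -0.33 to 0.17, adjusted p = 0.809 by edgeR). The ratio of Lox to Loxl1 was 18.0, 23.3 and 18.5 in the TBHP group and 11.8, 18.8 and 7.79 in the TBHP+FGF21 group, where F2 again lay among the TBHP libraries. Its mean log2 value differed by -0.72, TBHP+FGF21 against TBHP (two-sided exact permutation test, p = 0.3, adjusted p = 0.45 over 3 ratios, n = 3 per group), by -1.05 without F2 and by -0.41 without F3.

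**Figure D2:**
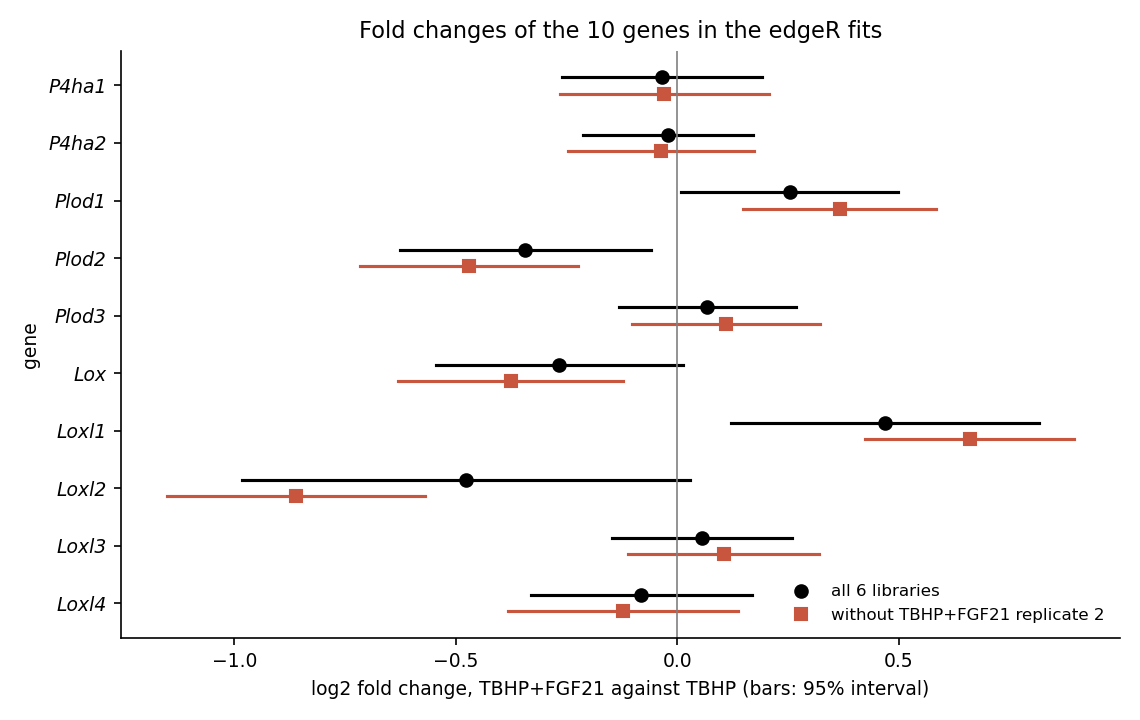
Log2 fold change of each gene in TBHP+FGF21 against TBHP with its 95% interval from edgeR, for all 6 libraries (black circles) and without F2 (red squares). Without that library, Loxl1 lies at 0.66, Plod1 at 0.37, Plod2 at -0.47 and Loxl2 at -0.86, whereas P4ha1 and P4ha2 stay near 0.

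F2 lay within the range of the TBHP libraries for 8 of the 10 genes, against 64.4% of all genes tested. F1 did so for 0 of the 10 genes (38.6% of all genes) and F3 for 2 (35.4% of all genes). For 6 genes, F1 and F3 were both outside the TBHP range on the same side, as the plot of each library against the TBHP mean shows, beside 39.8% of all genes tested. Without F2, edgeR gave 4 of the 10 genes an adjusted p under 0.05, namely Loxl1 and Plod1, which were higher, and Loxl2 and Plod2, which were lower. This compares with 7.50% of all genes, 3.78% higher and 3.72% lower. It gave 5 genes an unadjusted p under 0.05, against 23.6%. F2 was singled out for its nearness to the TBHP libraries, so that leaving it out widens the difference and narrows the spread by construction, and the p-values without it are a description and not independent evidence. When another library was left out, at most 1 gene of the whole table had an adjusted p under 0.05, and it was none of the 10. The label of this library names FGF22, and the part of that label in its position was not tested.

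**Figure D3:**
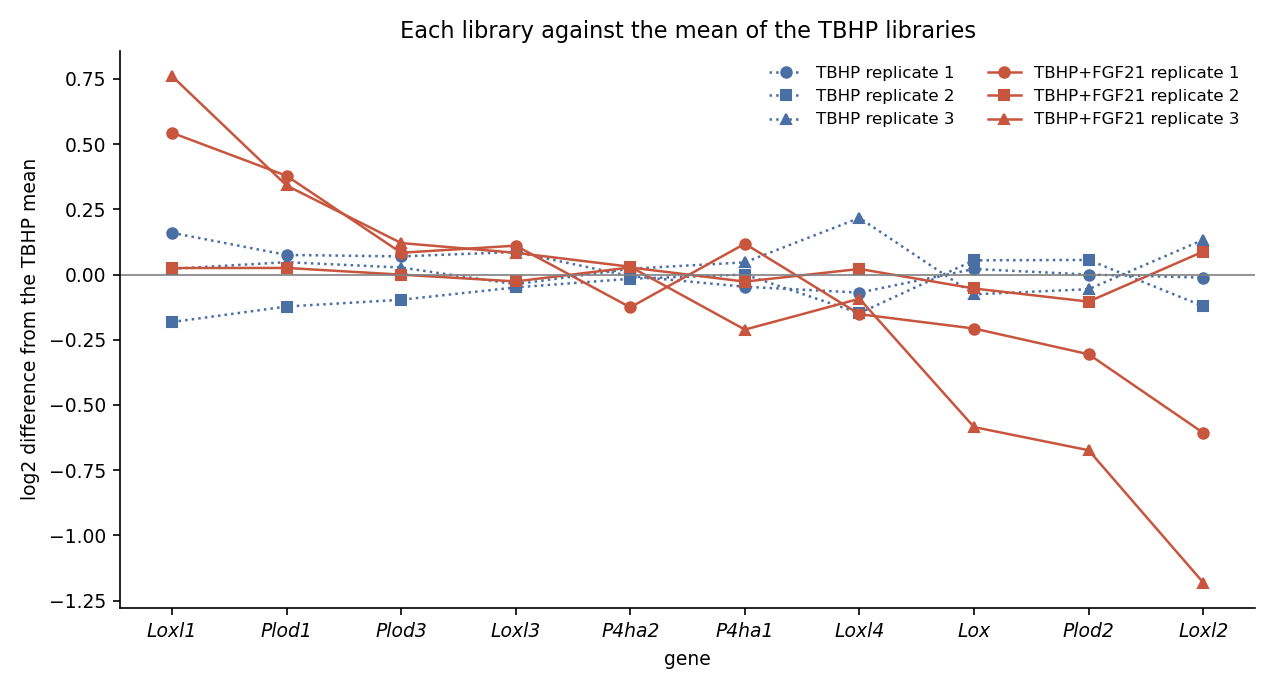
Log2 difference of each library's level from the mean of the TBHP libraries, for the 10 genes ordered from Loxl1 to Loxl2, with blue dotted lines for TBHP and red lines for TBHP+FGF21. F3 runs from 0.76 for Loxl1 to -1.18 for Loxl2 and F1 from 0.54 to -0.61. F2 is at 0.02 for Loxl1 and 0.09 for Loxl2, and lies lowest for Plod2, at -0.10.

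**Figure D4:**
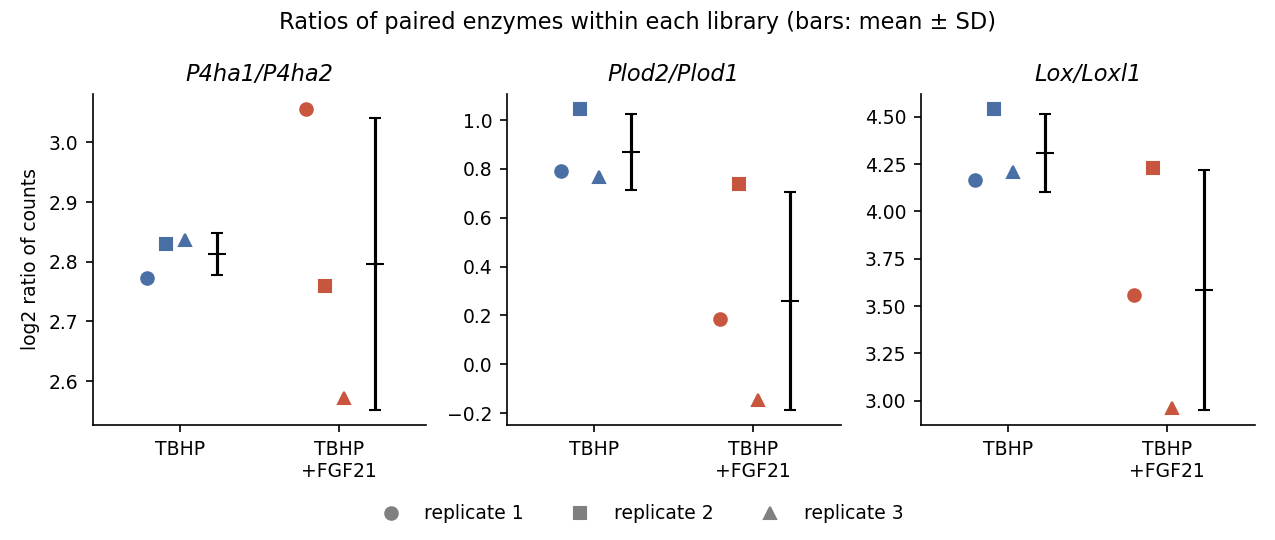
Log2 ratio of counts within each library for P4ha1 to P4ha2, Plod2 to Plod1 and Lox to Loxl1, with the mean ± SD of each group. The ratio of Plod2 to Plod1 is lower in all 3 TBHP+FGF21 libraries, and F2 is close to the TBHP group in each panel.

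Likeness of profiles was measured by the root mean square difference of log2 levels over the 6 libraries, each gene centred on its own mean. Lox and Plod2 were each other's closest among the 10 genes, at 0.04, and Plod3 and Loxl3 were a pair at 0.04 as well. Among all genes tested, Loxl2 had only 3 genes within 0.1, the closest being Chsy3, a chondroitin sulfate synthase, at 0.09. Loxl1 had 40 genes within 0.1, with Tmem196 the closest at 0.03, and the lysyl hydroxylase Plod2 had 140, with Acp1 the closest at 0.04. For Plod1, Lox, P4ha1, Plod3, Loxl3 and Loxl4, between 253 and 2295 genes were within 0.1. The closest were Thra, Esco1, Dna2, Gtf2i, Josd1 and Magi1 in the same order. Flat genes have many near neighbours by this measure.

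The partners of these enzymes in the endoplasmic reticulum mostly differed little between the groups. Of 18 tested, Colgalt2 was higher and Fkbp14, a prolyl isomerase for collagen, was lower at an unadjusted p under 0.05 by edgeR. Over all genes tested, 4.63% were higher and 4.29% lower at that threshold. None of the 18 passed the adjustment. Colgalt2, a collagen galactosyltransferase, was close to the detection limit, at 0.0453 to 0.335 CPM in the TBHP group and 0.523 to 0.569 CPM in the TBHP+FGF21 group. Fkbp14 went from 66.2 ± 4.59 to 55.1 ± 6.43 CPM (SD, n = 3), with a log2 fold change of -0.27 (adjusted p = 0.553 by edgeR). P4hb, the β subunit that P4ha1 and P4ha2 bind, was at 1974 ± 82.4 and 2094 ± 148 CPM, and Serpinh1, a collagen chaperone, was at 2847 ± 206 and 2785 ± 121 CPM (SD, n = 3). Their log2 fold changes were 0.09 and -0.03. None of the 6 procollagen processing genes tested had an unadjusted p under 0.05 by edgeR, against 8.92% of all genes.

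Of the 17 substrates and scaffold genes, Postn and Col11a1 were lower at an unadjusted p under 0.05 by edgeR and none was higher. Over all genes tested, 4.29% were lower and 4.63% higher at that threshold. Postn, a matricellular protein that is known to bring Bmp1 to lysyl oxidase, was at 192, 203 and 222 CPM in the TBHP group and at 124, 187 and 146 CPM in the TBHP+FGF21 group. The groups did not overlap, F2 being the nearest, and the log2 fold change was -0.43 (adjusted p = 0.553 by edgeR), or -0.60 without F2 (adjusted p = 0.00354 by edgeR). Col11a1 went from 1651 ± 26.4 to 1283 ± 355 CPM (SD, n = 3), at -0.36 (adjusted p = 0.553 by edgeR). It lay between -0.55 (without F2, adjusted p = 0.0196 by edgeR) and -0.16 when a library was left out. Col1a1, the main chain of collagen I, was at 42463, 39098 and 38265 CPM against 36809, 40114 and 27868 CPM, at -0.19 (adjusted p = 0.628 by edgeR). The row named Col1a2 held at most 0.771 CPM in any library, which is close to the detection limit, beside 27868 CPM or more for Col1a1. As for Fth1, this row does not show that the gene was little expressed, and the reason was not tested.

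Among 6 tested genes of iron, copper and ascorbate supply, the transferrin receptor gene Tfrc was lower at an unadjusted p under 0.05 by edgeR. Over all genes tested, 4.29% were lower at that threshold. Tfrc went from 26.5 ± 0.865 to 19.9 ± 5.01 CPM (SD, n = 3), at -0.42 (adjusted p = 0.553 by edgeR). The copper importer gene Slc31a1 was at -0.27, and at -0.51 without F2 (adjusted p = 0.0176 by edgeR). Against 8.92% of all genes, none of 12 other tested targets of the hypoxia-inducible factors had an unadjusted p under 0.05 by edgeR. Their median log2 fold change was -0.04, and the smallest p were those of Ndrg1 at 0.26, Adm at 0.32 and Bnip3 at -0.18. Without F2, Ndrg1 was at 0.42 (adjusted p = 0.0154 by edgeR), Adm at 0.49 (adjusted p = 0.0551 by edgeR) and Bnip3 at -0.23.

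Of 9 TGF-beta targets, Tagln and Acta2, which encode contractile proteins, were lower and Tgfbi was higher at an unadjusted p under 0.05 by edgeR. Over all genes tested, 4.29% were lower and 4.63% higher at that threshold. Tagln was at 1946, 1886 and 1668 CPM in the TBHP group and at 1183, 1879 and 922 CPM in the TBHP+FGF21 group, with F2 among the TBHP libraries. The log2 fold changes were -0.47, -0.46 and 0.36, each with an adjusted p of 0.553 by edgeR, and -0.79, -0.76 and 0.53 without F2. The median over the list was -0.13.

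Of 7 nucleus pulposus markers tested, Pax1, Acan and Sox9 were higher at an unadjusted p under 0.05 by edgeR, at 0.54, 0.40 and 0.56. Over all genes tested, 4.63% were higher at that threshold. Foxf1 was at 0.27, and the other three were below 0 without passing that threshold, Krt8 at -0.43 with groups that did not overlap, Cd24 at -0.55 and Col2a1 at -0.26. Summed over the 11 markers in the table, the level was 2769 to 3217 CPM in the TBHP group and 3139 to 4819 CPM in the TBHP+FGF21 group, nearly all of it Acan. Of 6 tested annulus and fibroblast markers, Pdgfra was higher at 0.39 and the tendon factor Scx was lower at -0.39. Both had an unadjusted p under 0.05 by edgeR, against 8.92% of all genes. Over the 7 such markers found, the summed level was 2068 to 2474 CPM in the TBHP group against 2123 to 2317 CPM. The tendon marker Tnmd had a count of 0 in every library. The 8 macrophage and blood markers summed to 32.2 to 38.2 CPM in the TBHP group and 26.6 to 32.9 CPM in the TBHP+FGF21 group, nearly all of it Cd14. The 4 endothelial markers in the table summed to 0.609 to 0.950 CPM and 0.474 to 1.10 CPM. No marker passed the adjustment with all 6 libraries. Without F2, 4 of the 7 nucleus pulposus markers were higher after adjustment by edgeR, against 3.78% of all genes. By edgeR these were Pax1 at 0.75 (adjusted p = 0.000268), Acan at 0.54 (adjusted p = 0.0126), Sox9 at 0.75 (adjusted p = 0.0216) and Foxf1 at 0.42 (adjusted p = 0.0329). Pdgfra, at 0.58 (adjusted p = 0.00219), and Scx, at -0.60 (adjusted p = 0.00546), also passed in that fit. Krt8 at -0.48, Cd24 at -0.26 and Col2a1 at -0.37 stayed below 0 there and did not pass. Krt18 and Car12 had too few counts to be tested. The part of cell identity in the levels of the 10 genes was not tested.

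**Figure D5:**
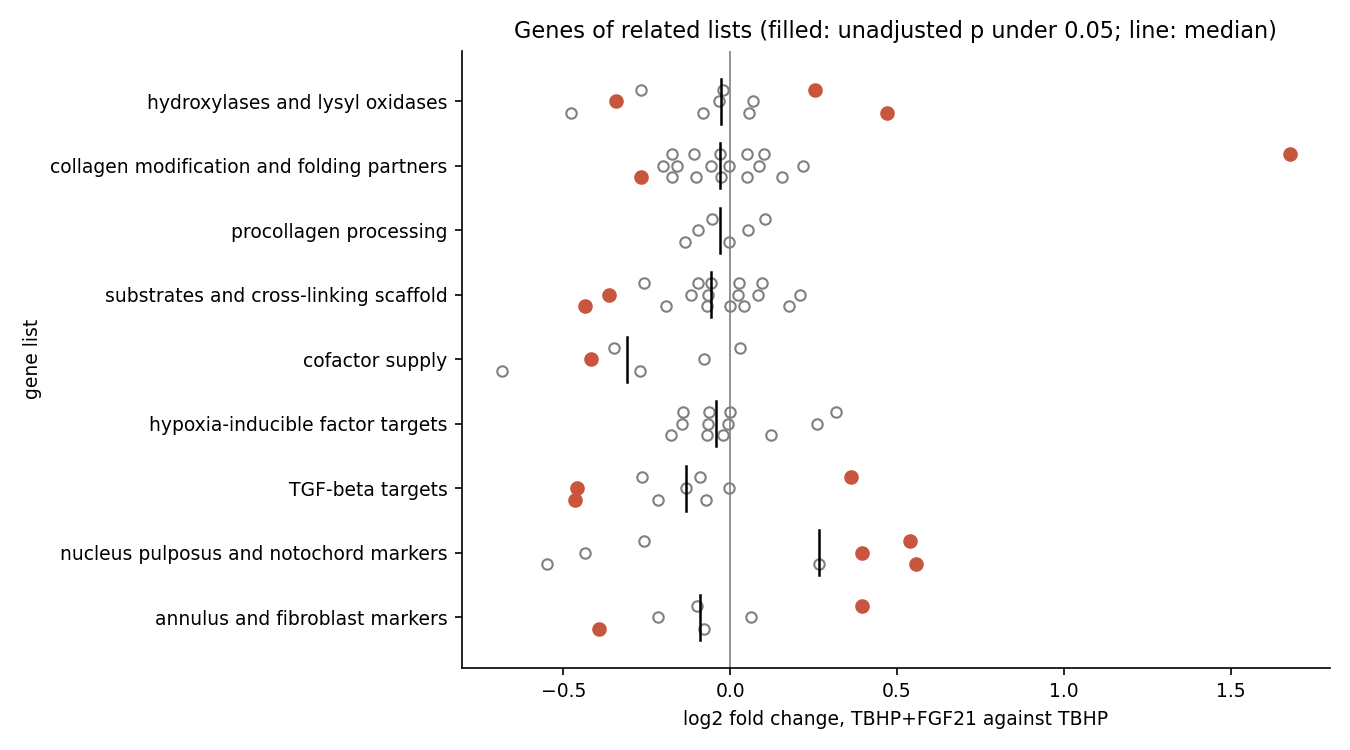
Log2 fold change in TBHP+FGF21 against TBHP for each tested gene of the 10 and of the related lists, without the macrophage and blood markers. Circles are filled where the unadjusted p of edgeR was under 0.05, and a line marks the median of each list. The medians lie between -0.31 for cofactor supply and 0.27 for nucleus pulposus markers, and no filled gene passed the adjustment.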

How the data were processed

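The authors deposited RNA-seq counts of 6 libraries (poly-A selected, from a directional kit). Per the labels, STAR and featureCounts were used, and versions, genome build and annotation are not given in the sources used here. The combined table that the authors deposited holds raw counts per gene symbol and was handled as estimated counts, because 22 rows hold values that are not whole, which were rounded up. The per-sample files, also deposited by the authors, hold whole counts per identifier and strand. The strand columns were near equal (ratio 1.01 to 1.02), so unstranded counts were used, and reads of antisense or overlapping genes cannot be separated. Each of the 10 genes was linked to the 1 identifier with the same unstranded counts in all 6 libraries. Their identical counts in both are thus by construction and no separate check.

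Levels are CPM after TMM scaling by edgeR. Groups were compared with edgeR 4.0.16 in R 4.3.3 (filterByExpr, minimum count 10 and total 15, glmQLFit, glmQLFTest, Benjamini-Hochberg adjustment over 11426 genes). DESeq2 1.42.0, limma 3.58.1, other scalings, filters and counts, the replicate block and leaving out each library were alternatives. Enzyme ratios were compared by exact permutation with scipy 1.17.1. On simulated counts of 11426 genes, edgeR called 179 of 200 genes given a log2 change of 1, with 14 false calls. The changes of the 10 genes were smaller, and no simulated library was made to stand apart from its group. Recovery of such changes was thus not tested. Transcript lengths were not used, and the tests compared libraries. Levels, sums and ratios of counts that set unlike genes side by side are thus not relative transcript numbers.

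The 10 genes, the lists and the ratios were chosen with earlier results of these data known, and the motifs were chosen after the values were seen. The genes named outside the 10 were up to 3 of each list with the smallest p, the main substrates, the closest profile of each gene (that of P4ha2 is not reported here), and some partners (P4hb, Serpinh1) and markers chosen after their values were seen.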

Additional observations from a re-analysis of the deposited data

How the results depend on the processing

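The number of the 10 genes with an unadjusted p under 0.05, which was 3, became 5 with limma-voom (8.72% of all genes), 5 without a filter on low counts (9.66%), 5 with the replicate block (14.0%) and 0 with limma on log2(normalized count + 1) (4.50%), against 8.92% as reported, and lay between 0 and 5 when a library was left out. With an adjusted p it was 0, and between 0 and 4 when a library was left out. The correlations of deviations were -0.14, 0.27 and 0.18 for libraries of the same number (1, 2 and 3). For unlike numbers they lay between -0.31 and 0.21. With 3 libraries per group, these values do not decide whether the numbers pair the libraries. In the block no gene of the 10 passed the adjustment. Of 170 log2 fold changes of the 10 genes over 17 alternatives, 5 changed sign, all of genes near 0. The alternative with unstranded per-sample counts repeated the counts of the 10 genes. P4ha2 was at 0.0033 with strand column 3 and at 0.0013 with library size only. With a library left out, P4ha1 lay between -0.105 (without F1) and 0.054 (without F3), P4ha2 between -0.040 (without F3) and 0.040 (without F1), and Loxl4 between -0.156 (without T2) and 0.044 (without T3). The log2 ratio difference of P4ha1 to P4ha2 was 0.0019 with strand column 4 and lay between -0.15 and 0.095 when a library was left out. For Plod2 to Plod1 it lay between -0.85 and -0.41, and for Lox to Loxl1 between -1.05 and -0.41. The cause of these changes was not tested.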
